A study of Mus musculus with 23 samples.

Results

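R-loop peaks that share at least 1 bp with an H3K9me3 peak are described here, as called from CUT&Tag of mouse CD4+ naive T cells. They were taken from the merged R-loop list on chromosomes 1 to 19 and X by their overlap with the merged H3K9me3 list. The rule gave 265 of 1465 R-loop peaks (18.1%), called marked R-loop peaks below, and left 1200 unmarked R-loop peaks. The R-loop list held 1499 peaks on all sequences. In CUT&Tag an antibody directs a transposase to tag the DNA close to its target.

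Cells came from the spleen and pLN of DDX55 KO mice and of WT mice, and the labels do not give age, strain, the deleted allele or any Cre driver, nor whether replicates were separate mice. The R-loop list is named by 8 samples made with the S9.6 antibody, which binds DNA-RNA hybrids. These were 2 KO and 2 WT samples treated with RNase H (20 U), and 2 KO and 2 WT samples with no treatment. The H3K9me3, RNA polymerase II and DDX55 lists are each named by 4 samples, 2 KO and 2 WT. There is 1 list per target, whose name the labels give alike for KO, WT and RNase H samples, and which of these samples entered the peak calls is not given in the sources used here. Every list holds positions only, so no value per sample, no KO against WT difference, no RNase H effect and no replicate spread could be given, and sequencing depth is unknown. RNA polymerase II peaks lay in or within 3000 bp of 8 of 9 marker genes of CD4 naive T cells, of 0 of 4 CD8 T and NK cell markers, 1 of 3 B cell markers (Cd79a), 0 of 4 myeloid markers and 0 of 3 erythroid markers.

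An R-loop forms when RNA pairs with its DNA template and leaves the other DNA strand unpaired, most often where RNA is being made. RNase H degrades the RNA of such hybrids, and DEAD-box proteins such as DDX55 are a family of RNA helicases. H3K9me3, trimethylation of lysine 9 on histone H3, is the mark of constitutive heterochromatin, which packs satellite DNA near centromeres, transposon copies and some gene clusters and is usually poor in transcription.

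Few marked R-loop peaks lay at gene ends. An end of a protein-coding gene lay within 1000 bp of 6 of the 265 (2.26%, exact 95% interval 0.835 to 4.86), against 68 of the 1200 unmarked peaks (5.67%, 4.43 to 7.13). The gene table gives no strand, so an end may be the start or the finish of the gene. These 6 peaks lay at Impact, whose end was inside the peak, at Cd4 (35 bp away), Gm51572 (200 bp), LOC100504180 (495 bp), Gm45978 (606 bp) and Duxf3 (665 bp). Of the 265, 0 met a RefSeq promoter window (250 bases before to 50 after a start, GRCm38.p6), against 39 of the 1200 unmarked peaks, and 0 lay within 1000 bp of one, against 84 unmarked peaks. The promoter table used held 32619 windows on these chromosomes and is not complete. These counts cover only the genes in it, which do not include Impact, Cd4, Gm51572 or LOC100504180. A window lay within 3000 bp of 7 marked peaks (2.64%), against 130 unmarked peaks (10.8%). Among those 7, the promoter of Duxf3 was the one covered whole by H3K9me3, so it is shown. Duxf3 (gene 74399) belongs to a repeated double homeobox family, and its window ended 1534 bp from a marked R-loop peak of 1337 bp, while a single H3K9me3 peak of 2894 bp (chr10:58231136-58234029) reached both. The 250 bases before the start (RefSeq, GRCm38.p6, chr10:58233090-58233339, minus strand) read as follows, with CG dinucleotides in capitals.
Duxf3 promoter: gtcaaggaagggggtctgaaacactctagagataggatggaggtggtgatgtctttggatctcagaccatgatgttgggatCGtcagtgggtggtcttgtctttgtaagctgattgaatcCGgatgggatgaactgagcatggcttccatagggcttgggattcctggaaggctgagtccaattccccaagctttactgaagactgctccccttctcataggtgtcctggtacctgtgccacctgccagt
This stretch held 2 CG dinucleotides at a GC content of 51.2%, against medians of 6 and 52.4% over all 32851 windows of the table, and 81.2% of windows held at least as many. The 52 windows met by unmarked R-loop peaks had a median of 13 CG dinucleotides and a GC content of 57.8%. No window of the table lay inside a marked peak, and no sequence of the marked peaks themselves is shown.

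Each marked R-loop peak met exactly 1 H3K9me3 peak and mostly lay inside it. Of the 265, 168 (63.4%) were fully inside an H3K9me3 peak, 83 overlapped one at an edge, and 14 held an H3K9me3 peak within themselves. H3K9me3 covered 87.3% of the 193781 bp in marked peaks, and 15 peaks were covered by less than 50%. The H3K9me3 partner was the wider interval in 216 cases, with a median width of 659 bp. Midpoints of the 2 intervals were a median of 54 bp apart, and in 30 cases both edges agreed to within 50 bp. The partners were 262 different H3K9me3 peaks, of which 3 met more than 1 marked R-loop peak. They were 1.62% of the 16161 H3K9me3 peaks on these chromosomes, so most H3K9me3 peaks met no R-loop peak.

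**Figure D1:**
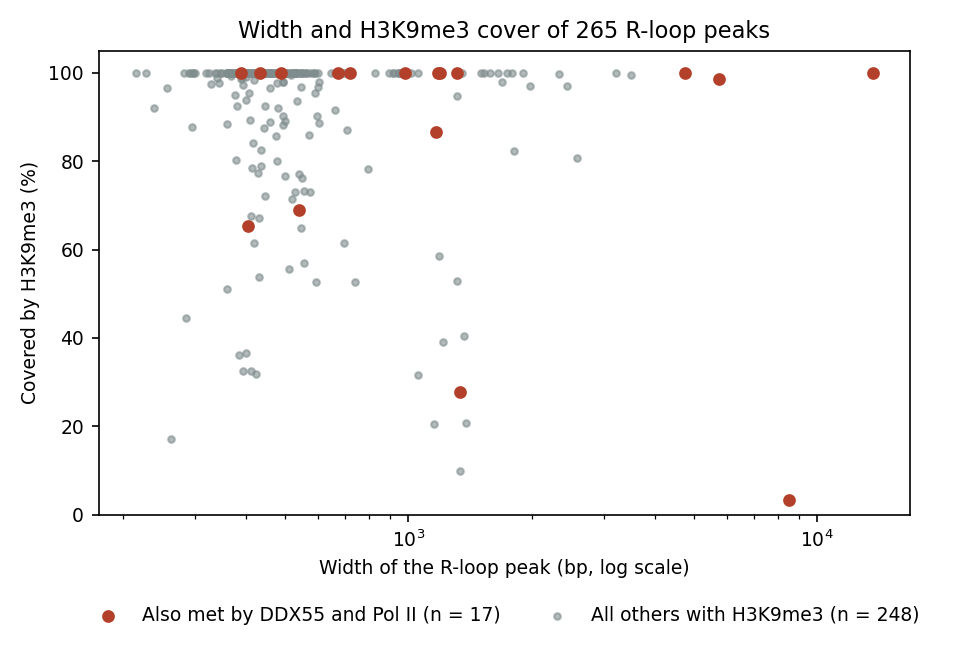
Width of each marked R-loop peak (bp, log scale) against the percentage of it covered by H3K9me3, 1 point per peak, with the 17 peaks that also meet DDX55 and RNA polymerase II in red and the other 248 in grey. Points gather at 100% cover (168 peaks), and the red point of 8535 bp at 3.36% is the peak over Cd4.

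A few peaks lay close to the limit of 1 bp. The smallest overlap was 45 bp, in a 262 bp R-loop peak within the cytochrome P450 gene Cyp2j8 (chr4:96462592-96462853). The next were 127 bp in a peak of 286 bp beside Zfp747 and 128 bp in a peak of 394 bp within Nkain2. Of the unmarked peaks, the nearest to H3K9me3 were 52 bp away (chr2:171333885-171334738), 71 bp away (chr5:78935619-78935935) and 74 bp away (chr14:93937341-93937789). Only 13 of the 1200 unmarked peaks lay within 1000 bp of H3K9me3, and their median distance to it was 421008 bp.

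Marked R-loop peaks were narrow. Their widths ran from 215 to 13682 bp with a median of 464 bp (95% interval 444 to 492), against 190 to 10106 bp and a median of 544.5 bp (528 to 572) for unmarked peaks, and 524 bp over all R-loop peaks. Widths of 300 to 600 bp made up 71.7% of marked peaks, against 49.9% of unmarked peaks. Peaks wider than 1000 bp were 36 of 265 (13.6%), against 321 of 1200 (26.8%). The median difference of -80.5 bp shrank to -20.5 bp when only H3K9me3 peaks wider than their median were used. The medians were then 507.5 bp (160 marked) and 528 bp (1305 unmarked). R-loop peaks that met only a narrower H3K9me3 peak counted as unmarked in that setting. Among peaks with no R-loop neighbour within 10 kb the medians were 446 bp for 238 marked peaks and 484 bp for 875 unmarked peaks. These intervals are exact binomial ones from order statistics and cover counting error only. Peaks are not replicates and neighbours are not independent, so no test of any difference between marked and unmarked peaks was made.

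They were also scattered. The 265 marked peaks fell in 228 windows of 1 Mb, 205 of which held a single one and none more than 6. The 1200 unmarked peaks fell in 580 windows with up to 89 in 1 window. These window counts are not matched for the number of peaks, and each leaves out peaks of the other kind. Another R-loop peak lay within 10 kb of 27 marked peaks (10.2%, 95% interval 6.82 to 14.5), against 325 unmarked peaks (27.1%, 24.6 to 29.7) and 24.0% of all R-loop peaks. Where a window held a single R-loop peak, 149 of 540 were marked (27.6%). The share was 25.7% in windows with 2 or 3 R-loop peaks (93 of 362), 11.2% in windows with 4 to 9 (21 of 188) and 0.533% in windows with 10 or more (2 of 375). The 10 fullest R-loop windows held 327 peaks and 1 marked peak, which lay on chromosome 14 in the T cell receptor alpha locus.

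**Figure D2:**
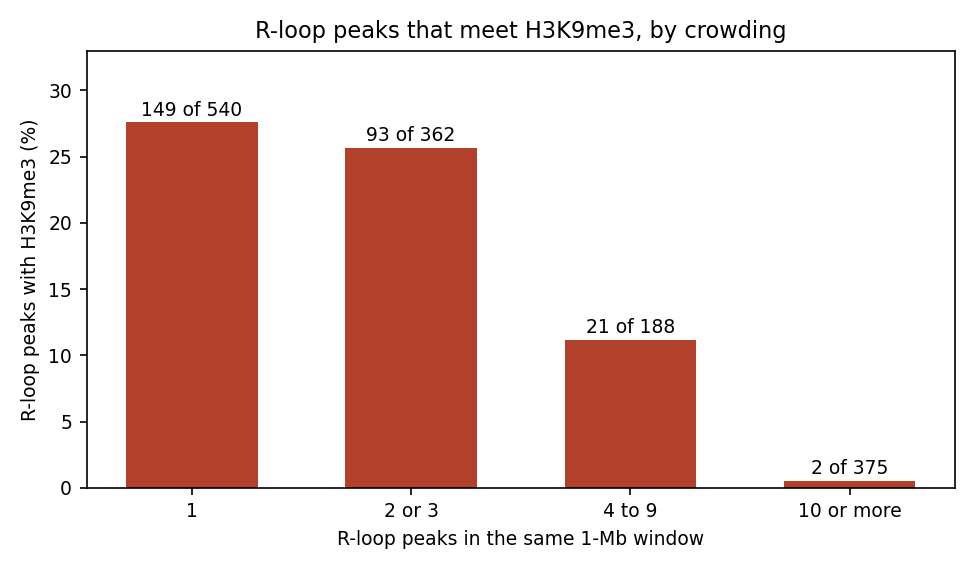
Percentage of R-loop peaks that meet H3K9me3 (y) by the number of R-loop peaks in their 1-Mb window (x), with the counts above each bar. The share is 27.6% where the peak is alone in its window and 0.533% in windows with 10 or more.

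The densest R-loop blocks held few marked peaks. The immunoglobulin heavy chain locus Igh held 97 R-loop peaks, none of them marked, although 5 H3K9me3 peaks lay in the locus. The dynamin gene Dnm3 held 32 R-loop peaks, 0 marked peaks and 0 H3K9me3 peaks. Tcra held 21 R-loop peaks, of which 1 was marked (550 bp), with 2 H3K9me3 peaks. The kappa light chain locus Igk held 3 R-loop peaks, of which 2 were marked (904 bp together), among 53 H3K9me3 peaks. Igl, Tcrb and Tcrg held no R-loop peak. Dnm3 was chosen after its values were seen.

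Chromosomes differed in the share of their R-loop peaks that was marked. On chromosome X 19 of 34 R-loop peaks were marked (55.9%, 95% interval 37.9 to 72.8), on chromosome 3 21 of 54 (38.9%, 25.9 to 53.1) and on chromosome 4 21 of 64 (32.8%, 21.6 to 45.7). On chromosome 12, which carries Igh, 7 of 163 were marked (4.29%, 1.74 to 8.65), and on chromosome 18 4 of 88 (4.55%, 1.25 to 11.2). The chromosome X peaks were short, at 290 to 604 bp with a median of 428 bp. Of those 19, 15 were intergenic, 14 were fully inside H3K9me3, and 3 lay in the genes Klhl13, Enox2 and Rtl4. The unmarked chromosome X peaks were of like width, with a median of 402 bp (n = 15).

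**Figure D3:**
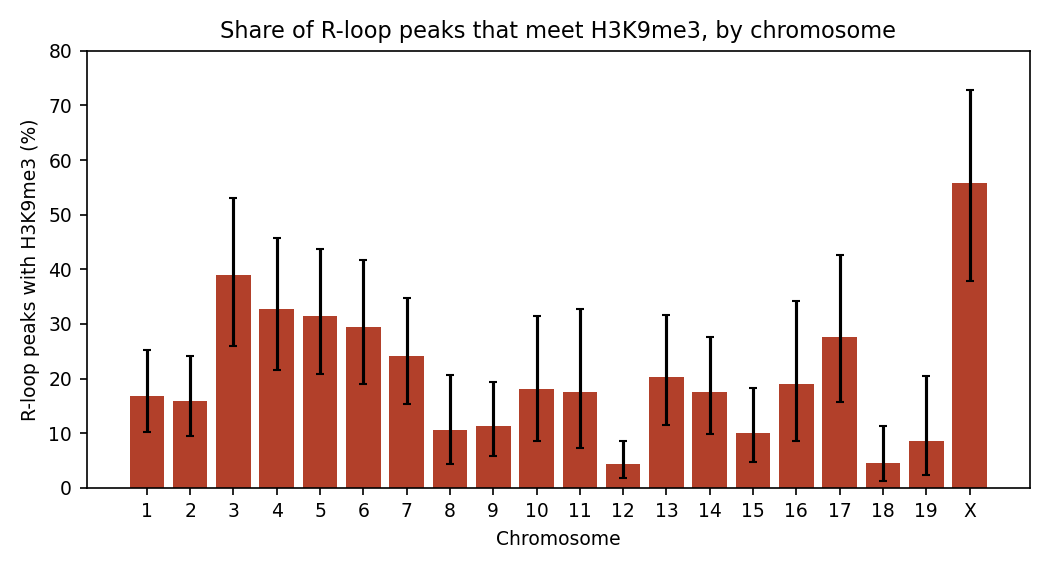
Percentage of the R-loop peaks of each chromosome that meet H3K9me3, with exact 95% binomial intervals as error bars (counting error only). Chromosome X is highest at 55.9%, and chromosomes 12 and 18 are lowest at 4.29% and 4.55%.

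Nearly all R-loop peaks near the centromeric chromosome ends were marked. Mouse chromosomes carry the centromere at 1 end, and the peaks of all 4 lists began no lower than base 3000003. Of 31 R-loop peaks that started below 4 Mb (2.12% of all), 28 were marked, which is 10.6% of marked peaks, against 3 or 0.25% of unmarked peaks. They lay on 10 chromosomes. Chromosomes 9 and 17 had 6 each, chromosomes 4 and 16 had 4 each, and chromosomes 11 and 18 had 2 each. These 28 were wide, with a median of 944 bp (320 to 13682), whereas the 237 marked peaks further along had a median of 446 bp. H3K9me3 covered 24 of the 28 whole.

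The block on chromosome 9 was the widest. Its peaks measured 4734 bp (chr9:3000006-3004739), 947 bp, 13682 bp (chr9:3012248-3025929), 942 bp, 826 bp and 1696 bp, and together they made up 22827 bp. The peak of 13682 bp was the widest of the whole R-loop list, and it lay in the widest peak of the H3K9me3 list on these chromosomes (13766 bp). No gene is annotated there, and the nearest protein-coding gene, Alkbh8, was 309302 bp away. On chromosome 17 6 peaks of 520 to 1528 bp lay between 3008958 and 3036835, all fully inside H3K9me3. Chromosome 16 had peaks of 2440, 918, 499 and 2333 bp between 3114563 and 3351885. Chromosome 11 had both of its peaks within Sfi1, whose product acts at the centrosome. The 3 unmarked peaks below 4 Mb measured 336, 425 and 494 bp, and H3K9me3 lay 705 to 88299 bp from them.

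Away from the chromosome starts, few windows held several marked peaks. The window from 49000001 to 50000000 on chromosome 14 held 3, all of its R-loop peaks, with 9 H3K9me3 peaks, and the window from 15000001 to 16000000 on chromosome 5 held 3 among 38 H3K9me3 peaks. On chromosome 2, peaks of 3500 bp (chr2:181928134-181931633) and 2582 bp (chr2:181916405-181918986) lay 14822 and 27469 bp from the nearest protein-coding gene in the table, Gm40035. The first of them was covered 99.6% by H3K9me3 and the other, in the noncoding RNA gene Gm40034, 80.8%. A peak of 3220 bp on chromosome 14 (chr14:19415778-19418997) was covered whole. The fixed 1-Mb window in which a marked peak started held a median of 9 H3K9me3 peaks, against 1 for unmarked peaks. The H3K9me3 peak that made an R-loop peak marked was not left out of this count. Part of the gap is therefore fixed by the rule.

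Marked R-loop peaks were mostly intergenic. By midpoint 175 of 265 (66.0%, 95% interval 60.0 to 71.7) lay outside annotated genes, against 487 of 1200 unmarked peaks (40.6%, 37.8 to 43.4) and 45.2% of all R-loop peaks. Protein-coding gene bodies held 52 (19.6%), against 342 (28.5%) of the unmarked. Other annotated genes held 29 (10.9%), against 265 (22.1%), a class that includes the antigen receptor loci. Within 3000 bp of a protein-coding gene end lay 9 (3.40%), against 106 (8.83%) and 7.85% of all R-loop peaks. In 1-Mb windows that held both kinds, 71.7% of 60 marked peaks and 41.9% of 93 unmarked peaks were intergenic. The gene-end shares there were 5.00% and 6.45%. In place the marked peaks lay close to H3K9me3 peaks without an R-loop peak, of which 70.9% were intergenic, 16.2% in gene bodies and 4.03% at gene ends (n = 15899).

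**Figure D4:**
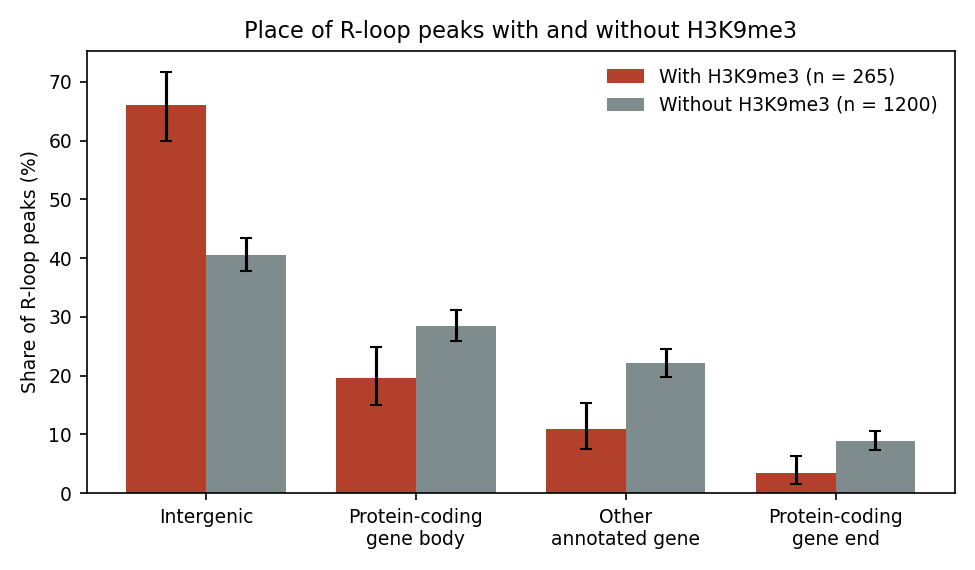
Share of R-loop peaks (%) in each class of place by midpoint, for the 265 peaks with H3K9me3 (red) and the 1200 without (grey), with exact 95% binomial intervals as error bars (counting error only). The intergenic class holds 66.0% of peaks with H3K9me3 and 40.6% of those without.

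The 9 marked peaks at gene ends included repeated genes and an imprinted one. The peak of 1185 bp at Impact, an imprinted gene for a regulator of translation, had its midpoint 94 bp from the gene's end (chr18:12954192-12955376), and H3K9me3 covered 693 bp of it. Others lay at Duxf3 (1337 bp) and its neighbour LOC100504180 (1315 bp), at Gm51571 and Gm51572 (983 bp, shared), and at Gm13212 (475 bp). The rest lay at Tmem245 (413 bp), Gm45978 (407 bp), the pheromone receptor gene Vmn2r46 (361 bp) and Zfp747 (286 bp), a zinc finger gene. These 9 are the whole class.

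The genes that held marked peaks were long. Marked peaks overlapped 94 annotated genes, of which 56 were protein-coding, 24 were long noncoding RNA genes and 12 were pseudogenes, transcribed ones included. Of the 56, 54 held exactly 1 marked peak, and Sfi1 and the dynein heavy chain gene Dnah7c held 2 each (1392 and 858 bp). Their median length was 212874 bp (95% interval 145891 to 340735), against 130006 bp (90714 to 149932) for the 290 protein-coding genes that held unmarked peaks only and 17329 bp for all 21631. Genes over 100 kb were 38 of the 56 (67.9%), against 158 of 290 (54.5%) and 11.2% of all. Gene length was not matched between these groups.

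Several of the longest hosts, picked after the values were seen, are genes known from neurons. Cntnap2, which encodes a contactin-associated adhesion protein, held a marked peak of 515 bp (chr6:46898572-46899086) fully inside H3K9me3. Lrp1b, an endocytic receptor gene, held one of 456 bp (chr2:41182587-41183042), also fully covered. Rbfox1, which encodes a splicing regulator, held one of 389 bp covered 98.7%. Lrrc4c, which encodes a netrin-G ligand, had a fully covered peak of 667 bp. H3K9me3 peaks were many in some of these genes, with 28 in Lrrc4c and 27 in Lrp1b, and few in others, with 3 in Rbfox1.

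A few hosts carried both kinds of R-loop peak. Of the 56 genes, 5 also held unmarked peaks (8.93%, exact 95% interval 2.96 to 19.6), against 295 of all 21631 protein-coding genes (1.36%). The hosts were longer than genes at large, as above, and length was not matched. Rora, which encodes the nuclear receptor ROR alpha, had 1 marked peak of 1311 bp and 7 unmarked ones. Sugct had 1 marked and 2 unmarked, and Malrd1 had 1 of each.

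Marked peaks lay in or within 3000 bp of 60 of all 21631 protein-coding genes (0.277%), against 337 (1.56%) for unmarked peaks, so a count of 0 or 1 in a short list is near the background. In a list of 40 genes for naive T cell identity and signalling by the T cell receptor, 1 (Cd4) had a marked peak in it or within 3000 bp, and 0 had an unmarked one. Activation and effector genes (32), R-loop processing genes (33), H3K9 methylation genes (30) and clustered protocadherin genes (57) had 0 of either kind. Vomeronasal receptor genes had 3 of 353 with a marked peak, Vmn2r99 (599 bp), Vmn2r26 (400 bp) and Vmn2r46, and 3 with an unmarked one. Zinc finger genes had 1 of 421 (Zfp747), against 7 with an unmarked peak, and olfactory receptor genes 0 of 1106, against 8. Imprinted genes had 2 of 42 with a marked peak, Impact and the noncoding RNA gene Snhg14, against 3 with an unmarked one. Genes of other blood cells had 0 of 19 with a marked peak, against 2. Multicopy families had 2 of 293 with a marked peak, Sfi1 and Duxf3, against 4. The lists were not tested. In repeated families and satellite DNA a read can map to several copies, how such reads were handled is not given in the sources used here, and their part in these results was not tested.

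DDX55 and RNA polymerase II met the same small set of marked R-loop peaks. DDX55 peaks met 18 of 265 marked peaks (6.79%, 95% interval 4.08 to 10.5), against 2 of 1200 unmarked peaks (0.167%, 0.0202 to 0.601) and 1.37% of all R-loop peaks. RNA polymerase II peaks met 18 marked peaks (6.79%), against 30 unmarked peaks (2.50%, 1.69 to 3.55) and 3.28% of all R-loop peaks. In 17 marked peaks both lists were present (6.42%, 3.78 to 10.1), against 0 of 1200 unmarked peaks (upper bound 0.307%). Outside those 17 places, DDX55 met 1 of 248 marked peaks and RNA polymerase II met 1 of 248 (0.403%), against 2.50% of unmarked peaks for RNA polymerase II.

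The RNA polymerase II difference turned to -2.10 percentage points once the 17 places were left out, although that step removes marked peaks chosen for RNA polymerase II. A stricter rule had H3K9me3, DDX55 and RNA polymerase II each cover at least 50% of the R-loop peak to count as met. Under it RNA polymerase II met 2.80% of marked and 1.81% of unmarked peaks. The DDX55 difference was then 3.92 percentage points, against 6.63 with any overlap. The 50% rule was not run for H3K9me3 alone. In windows that held both kinds, RNA polymerase II met 6.67% of 60 marked and 5.38% of 93 unmarked peaks, and DDX55 met 5.00% and 1.08%. The median distance to the nearest RNA polymerase II peak was 371939 bp for marked and 171884 bp for unmarked peaks. By midpoint, gene ends held 3 of the 18 marked peaks that met RNA polymerase II and 21 of the 30 unmarked ones. The 3 leave out the Cd4 peak, which reached to 35 bp from a gene end but had its midpoint in the gene body.

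**Figure D5:**
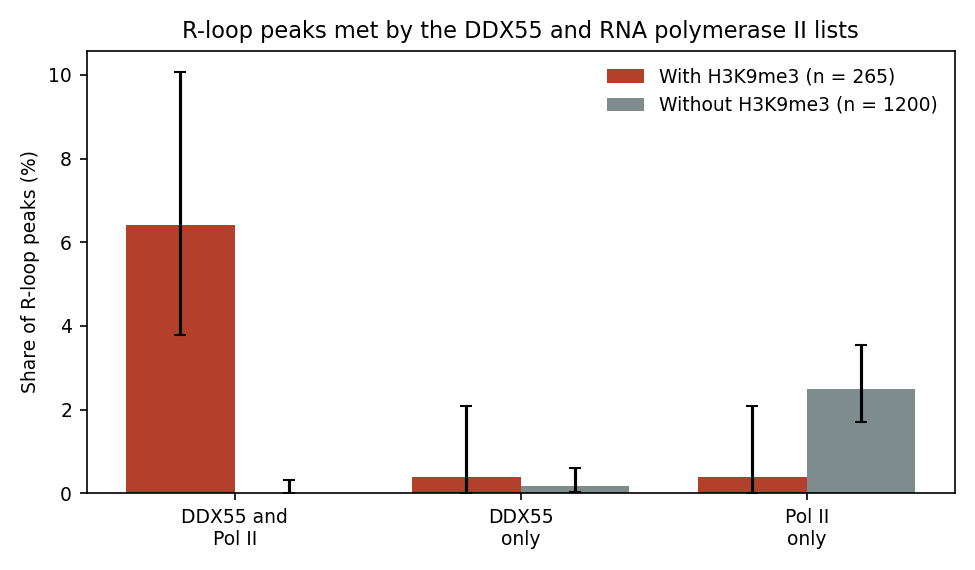
Share of R-loop peaks (%) met by DDX55 and RNA polymerase II (Pol II) together, by DDX55 only or by Pol II only, for peaks with H3K9me3 (red, n = 265) and without (grey, n = 1200), with exact 95% binomial intervals as error bars (counting error only). The joint class holds 6.42% of peaks with H3K9me3 and none of those without.

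Seen from the H3K9me3 list, DDX55 was present at 18 of the 262 H3K9me3 peaks that met an R-loop peak (6.87%, 95% interval 4.12 to 10.6), against 105 of the 15899 that did not (0.660%, 0.540 to 0.799). RNA polymerase II was present at 19 of 262 (7.25%), against 68 of 15899 (0.428%). Those 262 H3K9me3 peaks had a median width of 656.5 bp, against 605 bp for the 15899. The DDX55 list had 210 peaks on these chromosomes, of which 137 met H3K9me3, 21 met an R-loop peak and 19 met a marked one.

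The 17 places met by all 4 lists were wide, with a median of 1168 bp (390 to 13682), against 458 bp for the other 248 marked peaks. They lay on 11 chromosomes, 5 of them below 4 Mb. Among them were both widest peaks of chromosome 9, each with a DDX55 peak of about the size of its RNA polymerase II peak (560 and 540 bp in the peak of 4734 bp, 625 and 603 bp in the peak of 13682 bp). The place on chromosome 17 (chr17:39843034-39848786, 5753 bp) lay over Rn18s-rs5, a pseudogene related to 18S ribosomal RNA, and reached the noncoding RNA gene AY036118. There H3K9me3 covered 5672 bp, DDX55 5067 bp and RNA polymerase II 4605 bp of the R-loop peak. A place on chromosome 1 (chr1:24612412-24613579, 1168 bp), over the pseudogene Gm10222, was covered whole by DDX55 and RNA polymerase II and for 1011 bp by H3K9me3.

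Other such places lay in gene bodies and repeated loci. In Snhg14 a peak of 1192 bp (chr7:59767572-59768763) lay inside an H3K9me3 peak of 6001 bp, with 524 bp of DDX55 and 300 bp of RNA polymerase II. The Duxf3 peak shared 302 bp with DDX55 and 212 bp with RNA polymerase II, and that of LOC100504180 1005 and 113 bp. The Sfi1 peaks of 719 and 673 bp shared 719 and 363 bp with DDX55. A peak of 1181 bp on chromosome 15 (chr15:75085685-75086865), 21296 bp from Ly6c2, shared 495 bp with DDX55 and 417 bp with RNA polymerase II. The peak of 983 bp at Gm51572 shared 318 and 257 bp with them. Peaks of 434 bp in Peak1 and 390 bp in Jarid2, which encodes a partner of the Polycomb complex, were covered whole by H3K9me3. In Jarid2 all 4 lists had a peak that covered these 390 bp. Peak1 and Jarid2 were named after their values were seen.

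The place over Cd4, the coreceptor gene of these cells (gene 12504, chr6:124864693-124888247), had the least cover by H3K9me3. Its R-loop peak of 8535 bp (chr6:124879678-124888212) shared 287 bp with a single H3K9me3 peak (3.36%), 440 bp with DDX55 and 4911 bp with RNA polymerase II. The H3K9me3 peak lay wholly inside the R-loop peak. With at least 50% of the R-loop peak covered, Cd4 would not be marked.

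The remaining overlaps were single cases. On chromosome X the marked peak in Rtl4, a gene derived from a retrotransposon (chrX:145115161-145115618, 458 bp), met DDX55 over 443 bp and no RNA polymerase II peak. On chromosome 6 an intergenic marked peak of 1985 bp (chr6:114563821-114565805), 77322 bp from Atg7, met RNA polymerase II over 455 bp and no DDX55 peak. The 2 unmarked R-loop peaks met by DDX55 lay in Igh at the variable segment Ighv8-8 (1092 bp, 454 bp shared) and in Myo3a (519 bp, 457 bp shared).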

How the data were processed

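The authors deposited 1 merged list of peaks per target, each with a chromosome, a start and an end in bp, which is another unit than counts or signal. Per the submitters' processing notes the build was mm10 and the named tools include the peak caller MACS3 3.0.0b1, the aligner Bowtie2 2.5.0, ChIPseeker 1.30.3 for annotation, the read trimmer fastp 0.12.4, and SAMtools 1.15.1. Peak thresholds, the way of merging and read depth are not given in the sources used here. R-loop intervals were never closer than 1445 bp to each other, against 3 bp for H3K9me3, so nearby R-loop signal may be joined in 1 interval. Overlap of at least 1 bp was found in Python 3.11.15 (pandas 2.3.3, numpy 2.4.6), gave the same counts as bedtools 2.31.1, and was tested on simulated intervals. The 95% intervals of shares are exact Clopper-Pearson ones (scipy 1.17.1). Genes (49554, of which 21631 protein-coding) came from a RefSeq table of GRCm38.p6. It gives no strand or exons, so a gene end is 3000 bp to either side of either end, and a midpoint was put first to a gene end, else to a protein-coding body, else to another gene, else called intergenic. Of the listed genes 1 imprinted gene had no entry.

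The members and lists were chosen with earlier results of these data known. Named were the 10 widest members, up to 12 met by all 4 lists and up to 12 met by DDX55 alone, widest first, the 10 genes with most members, up to 6 genes per list, the fullest windows and the edge of the rule. Any other was chosen after its values were seen. Alternatives were other overlap rules (applied to the H3K9me3, DDX55 and RNA polymerase II lists alike), wider peaks only, joined neighbours, and loci, windows or chromosome X left out. Signal per sample, the HA and IgG profiles were not analysed here. Values of a few genes are not reported here.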

Additional observations from a re-analysis of the deposited data

Results flagged for a closer look

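R-loop peaks outside chromosomes 1 to 19 and X were not part of the comparisons. They are listed because they fall outside those comparisons, and no test was made. Of 34 such peaks, 32 met H3K9me3. On chromosome Y 6 of 8 did so, and on the unplaced and unlocalised sequences all 26 did so, 15 of them on a single sequence. DDX55 met 7 of the 34 and RNA polymerase II met 6.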

How the results depend on the processing

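Of 81 recomputed values, 64 lay within the counting interval of the value reported, 16 moved beyond it and 1 reversed. That interval was an exact 95% one for the share and a Newcombe 95% one for differences of shares. For the width difference it joined the outer limits of the separate 95% intervals of both medians. It is therefore wider than a 95% interval of that difference. Differences are marked minus unmarked. The share of R-loop peaks that met H3K9me3, 18.1%, was 12.8% among R-loop peaks wider than their median, 10.9% with H3K9me3 peaks wider than theirs and 20.5% with R-loop peaks closer than 10 kb joined. The DDX55 difference, 6.63 percentage points, was 3.92 where H3K9me3 and DDX55 each had to cover 50% or more of the peak. It was 13.7 among wider R-loop peaks, 3.92 in 1-Mb windows that hold both kinds and 0.237 without the places met by all 4 lists. The RNA polymerase II difference, 4.29 points, was 0.989, 13.3, 1.29 and -2.10 in the same 4 settings, the 50% rule then applying to RNA polymerase II. The last setting removes only marked peaks met by both DDX55 and RNA polymerase II, so it lowers both differences by construction. The gene-end difference, -5.44 points, was -1.45 in windows that hold both kinds. The difference in peaks with an R-loop neighbour, -16.9 points, was -8.73 with wider H3K9me3 peaks, -11.6 in windows that hold both kinds and -22.9 without peaks starting below 4 Mb. The median width difference, -80.5 bp, was -189 bp among wider R-loop peaks and -20.5 bp with wider H3K9me3 peaks. In settings with a stricter H3K9me3 rule, R-loop peaks that no longer qualified counted as unmarked. The intergenic difference, 25.5 points, ran from 20.2 to 29.7 over its 11 alternatives. Leaving out the all-list places and the peaks below 4 Mb was chosen after seeing the data. No paired analysis was possible because the lists are merged over samples and hold no value per sample, and for the same reason no replicate could be left out. Depth is unknown, so a missing overlap may be a peak too weak to be called.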
